A study of Mus musculus with 9 samples.

Results

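The tricarboxylic acid (TCA) cycle was followed through 9 genes of its mitochondrial enzymes, chosen by name and role: Cs, Idh2, Idh3a, Idh3b, Idh3g, Ogdh, Suclg1, Suclg2 and Mdh2. All 9 were among the 19329 gene symbols measured and all 9 were among the 12091 genes that passed the filter on low counts. RNA-seq was done on the livers of 9 mice of the inbred strain C57BL/6J, taken at 11 weeks of age. The chow group was 5 mice kept on standard chow, and the HSD group was 4 mice given a high-sucrose diet from 8 weeks of age for 3 weeks. No genetic change or drug is named for either group, the mice were separate animals under the same cycle of light and dark, and the labels leave out their sex. The question behind the comparison is how the sucrose diet, used to bring on fatty liver, alters the liver transcriptome.

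The TCA cycle runs in the mitochondrial matrix. Citrate synthase joins acetyl-CoA to oxaloacetate, and the citrate formed is oxidised step by step back to oxaloacetate while reduced cofactors pass to the respiratory chain. In liver the cycle also supplies material for synthesis: citrate leaves the mitochondria for fatty acid synthesis, and malate and oxaloacetate feed the formation of glucose. The messages of the enzymes are only a part of what sets the flow through the cycle, which also depends on substrates and on the state of the proteins.

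Of the 9 members, 1 was higher on HSD and 0 were lower at an adjusted p under 0.05 (edgeR's quasi-likelihood test, Benjamini-Hochberg adjustment over all genes tested), and 8 did not pass. For the 12091 genes as a whole these shares were 3.44% higher and 3.23% lower. DESeq2 and limma voom also called 1 member higher and 0 lower. The gene that rose was Cs, which encodes citrate synthase, the enzyme of the entry step, with a difference of 0.77 on the log2 scale (SE 0.09, adjusted p = 0.00105 from edgeR). The 8 other members had log2 fold changes of -0.26 to 0.17. The median over the 9 members was -0.05, beside -0.0039 over all genes tested, and 4 members had a positive and 5 a negative value. At an unadjusted p under 0.05 there were 2 of the 9 members, Cs and Idh2, beside 23.7% of all genes tested (2861 of 12091). Cs was also the 1 member whose HSD livers all lay above the chow livers (5.84% of all genes tested did), and 0 members had all HSD livers below the chow livers (5.51% of all genes did).

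**Figure D1:**
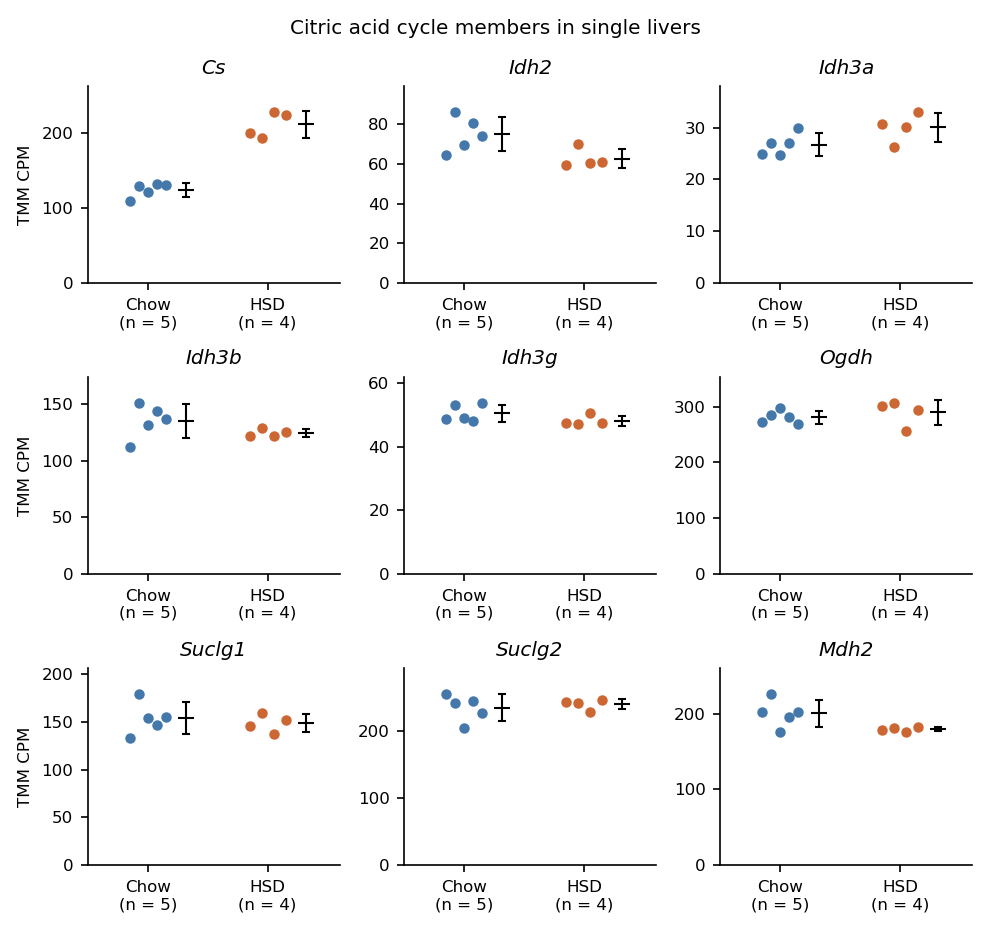
TMM-normalized CPM (vertical axes, from 0) of the 9 TCA cycle members in single livers, chow (blue, n = 5) and HSD (orange, n = 4), with the mean and SD of each diet beside the points. Cs spans 109 to 131 CPM on chow and 192.5 to 228 CPM on HSD, while in the 8 other panels the diets overlap.

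Cs lies on chr10:128337734-128362479, plus strand, in GRCm38. The bases before the start of transcription are shown for Cs and, for comparison, for Suclg2 and Idh3g, whose windows likewise lie wholly outside the annotated gene and whose transcripts did not pass the test. The windows come from RefSeq (GRCm38.p6) and hold the 250 bases up to the start, read 5′ to 3′ on the strand of the gene. They are chr10:128337477-128337726 on the plus strand for Cs, chr6:95718847-95719096 on the minus strand for Suclg2 and chrX:73786898-73787147 on the minus strand for Idh3g. Capitals mark GC boxes (GGGCGG) and CCAAT boxes (CCAAT), on either strand.
Cs: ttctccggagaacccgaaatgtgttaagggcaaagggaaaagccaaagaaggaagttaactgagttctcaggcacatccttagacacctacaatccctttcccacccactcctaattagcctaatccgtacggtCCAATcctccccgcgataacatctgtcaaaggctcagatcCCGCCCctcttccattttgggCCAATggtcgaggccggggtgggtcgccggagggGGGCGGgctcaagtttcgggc
Suclg2: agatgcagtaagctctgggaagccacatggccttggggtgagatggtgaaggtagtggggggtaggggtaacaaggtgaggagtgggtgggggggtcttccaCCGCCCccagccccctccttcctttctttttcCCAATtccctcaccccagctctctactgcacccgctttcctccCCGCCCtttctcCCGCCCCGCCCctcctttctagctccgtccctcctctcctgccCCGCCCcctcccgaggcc
Idh3g: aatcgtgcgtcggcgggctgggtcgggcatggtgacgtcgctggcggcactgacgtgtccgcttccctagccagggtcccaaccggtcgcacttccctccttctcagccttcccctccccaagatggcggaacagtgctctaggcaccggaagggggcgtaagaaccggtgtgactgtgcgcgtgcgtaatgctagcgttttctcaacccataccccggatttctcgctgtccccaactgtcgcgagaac

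The Cs window held 2 GC boxes, 76 to 71 and 21 to 16 bases before the start, and 2 CCAAT boxes, 116 to 112 and 55 to 51 bases before it. The Suclg2 window held 5 GC boxes, of which a pair overlap by their last and first base, and 1 CCAAT box, while the Idh3g window held none of the motifs searched. RefSeq windows were at hand for 8 of the 9 members, Idh3a being the exception. A GC box was found in 5 of these 8 windows, against 32.7% of 32851 windows of the same length, and a CCAAT box in 5 of 8, against 33.8%. Members had 1 window each, whereas the 32851 are all RefSeq windows, with several for some genes. The shares thus come from unlike sets, and a difference between them was not tested. The other motifs searched were the E-box (CACGTG, in 6.02% of all windows), an ETS site bound by GABP (CCGGAAGT, 2.88%), an NRF1 site (GCGCATGCG, 1.45%), an ERR element (TNAAGGTCA, 1.14%) and a sterol element (TCACNCCAC, 1.05%). These letters were in 0 of the 8 windows, which says nothing about binding outside them or in other spellings.

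Normalized expression is given as CPM, counts scaled to a fixed library size after TMM normalization, which compares 1 gene between livers. Cs stood at 109, 129, 121, 131 and 130 CPM in chow livers 1 to 5 and at 199, 192.5, 228 and 224 CPM in HSD livers 1 to 4. Every HSD liver was above every chow liver, and the gap between the diets was wider than the spread within either diet. The fitted difference was 1.70-fold, with a 95% interval of 0.57 to 0.96 on the log2 scale. The livers carry library labels of 2 number series, each with both diets. Cs averaged 123 CPM on chow (4 livers) and 196 CPM on HSD (2 livers) in the first series, and 130 CPM in the 1 chow liver against 226 CPM in the 2 HSD livers of the second. Fitted on the 6 livers of the first series alone, the log2 fold change of Cs was 0.67, with an adjusted p of 0.0844 from edgeR.

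Of the 31-base sequences of Cs transcripts, 5.97% also occur in other genes, and 4.33% in Csl, a citrate synthase-like gene. Csl had at most 4.05 estimated counts in any liver, while Cs had 1662 to 5648. Bulk liver RNA cannot tell fewer cells of a type from less RNA per cell, and this holds for every difference given here.

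Of the 4 isocitrate dehydrogenase members, 0 passed the test. NAD-dependent isocitrate dehydrogenase, which turns isocitrate into alpha-ketoglutarate, is built of catalytic alpha subunits (Idh3a) with beta and gamma subunits (Idh3b, Idh3g). Idh3a stood at 24.8, 27.1, 24.6, 27.1 and 29.9 CPM on chow and at 30.7, 26.3, 30.2 and 33.1 CPM on HSD (log2 fold change 0.17, 95% interval -0.03 to 0.37, adjusted p = 0.281 from edgeR). HSD livers 1, 3 and 4 were above every chow liver and HSD liver 2 was within the chow range. Idh3b stood at 112, 151, 132, 144 and 137 CPM on chow and at 122, 129, 122 and 125 CPM on HSD (log2 fold change -0.12, 95% interval -0.32 to 0.08). Idh3g stood at 48.6, 53.0, 48.9, 48.1 and 53.8 CPM on chow and at 47.5, 47.1, 50.5 and 47.5 CPM on HSD (log2 fold change -0.07, 95% interval -0.23 to 0.09). For both, the HSD values lay close together and within or just below the chow values.

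Idh2 encodes the mitochondrial NADP-dependent isocitrate dehydrogenase, which makes NADPH in the matrix. It stood at 64.8, 86.4, 69.9, 80.5 and 73.9 CPM on chow and at 59.7, 70.0, 60.3 and 60.9 CPM on HSD. HSD livers 1, 3 and 4 were below every chow liver, and HSD liver 2 was above chow livers 1 and 3. The log2 fold change was -0.26 (SE 0.10, 95% interval -0.48 to -0.04), the most negative among the members, and it did not pass after adjustment (adjusted p = 0.137 from edgeR).

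Ogdh encodes the first component of the alpha-ketoglutarate dehydrogenase complex, which forms succinyl-CoA. It stood at 273, 285, 298, 281 and 268 CPM on chow and at 301, 307, 257 and 294 CPM on HSD (log2 fold change 0.04, 95% interval -0.15 to 0.23). HSD liver 3 was the lowest of the 9 livers and HSD liver 2 the highest.

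Succinyl-CoA ligase turns succinyl-CoA into succinate and joins the alpha subunit (Suclg1) to a GDP-forming beta subunit (Suclg2) or an ADP-forming one (Sucla2). Suclg1 stood at 133.5, 179.5, 154, 146 and 155.5 CPM on chow and at 146, 160, 138 and 152 CPM on HSD (log2 fold change -0.05, 95% interval -0.26 to 0.16). Suclg2 stood at 256, 242, 205, 245 and 227 CPM on chow and at 243, 242, 229 and 247 CPM on HSD (log2 fold change 0.03, 95% interval -0.16 to 0.22). In both genes the HSD range lay inside the chow range. The value of Suclg2 is uncertain to the extent that 20.1% of its 31-base sequences also occur in Gm15163, whose reads may be counted with it.

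Mdh2 encodes mitochondrial malate dehydrogenase, which closes the cycle by returning malate to oxaloacetate, the substrate of citrate synthase. It stood at 201.9, 226, 176, 195 and 201.8 CPM on chow and at 179, 181, 176 and 183 CPM on HSD (log2 fold change -0.16, 95% interval -0.35 to 0.03, adjusted p = 0.302 from edgeR). Every chow liver but liver 3 was above every HSD liver, and chow liver 3 was among the HSD values. The intervals of the 8 members that did not pass reach from -0.48 to 0.37 on the log2 scale, all below the lower bound of Cs. The interval of Idh2 leaves out 0 and those of the other 7 include it.

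**Figure D2:**
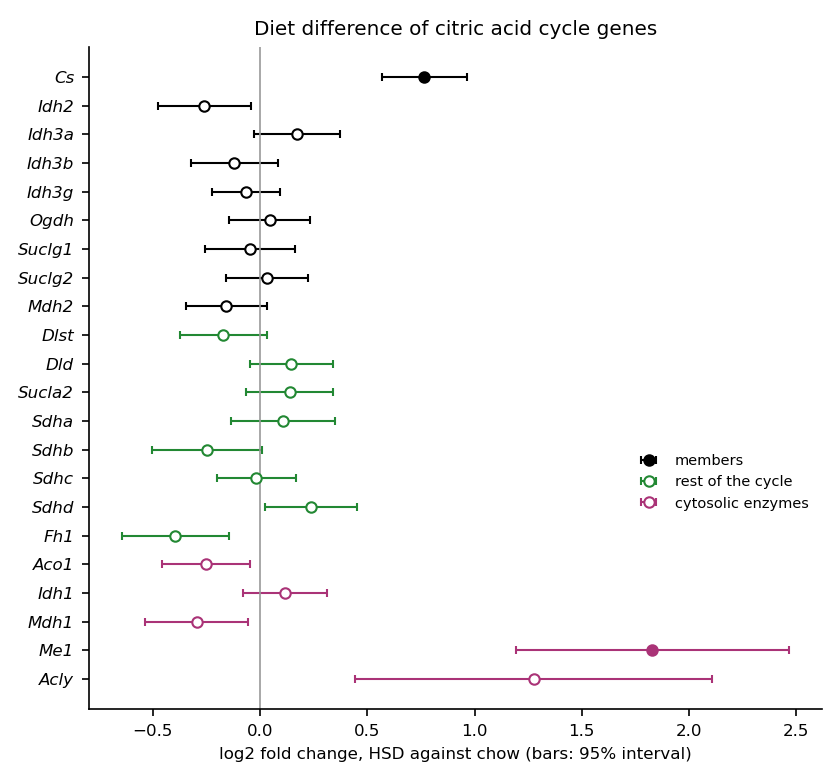
Log2 fold change of HSD against chow from edgeR (horizontal axis, bars give the 95% interval) for the 9 members (black), 8 other genes of the cycle (green) and 5 cytosolic enzymes (purple), with filled points for an adjusted p under 0.05. Cs at 0.77 and Me1 at 1.83 are the filled points, and Acly at 1.27 and Fh1 at -0.40 are not past the threshold.

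To compare the levels of different genes, TPM values were used, which allow for transcript length. On chow, Mdh2 was the highest member at 194.5 ± 25.6 TPM (SD, n = 5), followed by Suclg1 at 137 ± 21.4 TPM, Idh3b at 115 ± 18.6 TPM and Suclg2 at 115 ± 15.004 TPM. Ogdh was at 84.5 ± 8.33 TPM, and Idh2, Idh3g and Cs followed at 58.0 ± 10.2, 55.1 ± 5.24 and 53.0 ± 7.87 TPM. Idh3a was the lowest at 17.3 ± 2.13 TPM. Of these neighbours, Suclg1 and Idh3b, Idh3b and Suclg2, Idh2 and Idh3g, and Idh3g and Cs had ranges that overlapped.

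On HSD the order was Mdh2 at 193 ± 1.34 TPM (SD, n = 4), Suclg1 at 148 ± 7.21 TPM, Suclg2 at 135 ± 4.99 TPM and Idh3b at 120 ± 2.52 TPM, then Cs at 101 ± 9.35 TPM and Ogdh at 96.9 ± 7.30 TPM. Idh3g at 58.8 ± 3.11 TPM, Idh2 at 54.0 ± 3.54 TPM and Idh3a at 21.4 ± 1.81 TPM came last. Cs was thus at rank 8 of the members on chow and at rank 5 on HSD, where its range overlapped that of Ogdh. The ranges of Suclg1 and Suclg2, and of Idh3g and Idh2, also overlapped. The transcripts of Cs were 5.90% to 6.72% of the summed TPM of the 9 members on chow and 9.67% to 12.0% on HSD. The 8 members without Cs summed to 652 to 866 TPM on chow and 803 to 836 TPM on HSD, so that the HSD range lay inside the chow range. Between diets the TPM scale differs from the main fit. On log2(TPM + 1) the median log2 fold change was 0.14 over 10542 genes, beside -0.0039 in the main fit. That of Cs was 0.92 on this scale, beside 0.77.

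**Figure D3:**
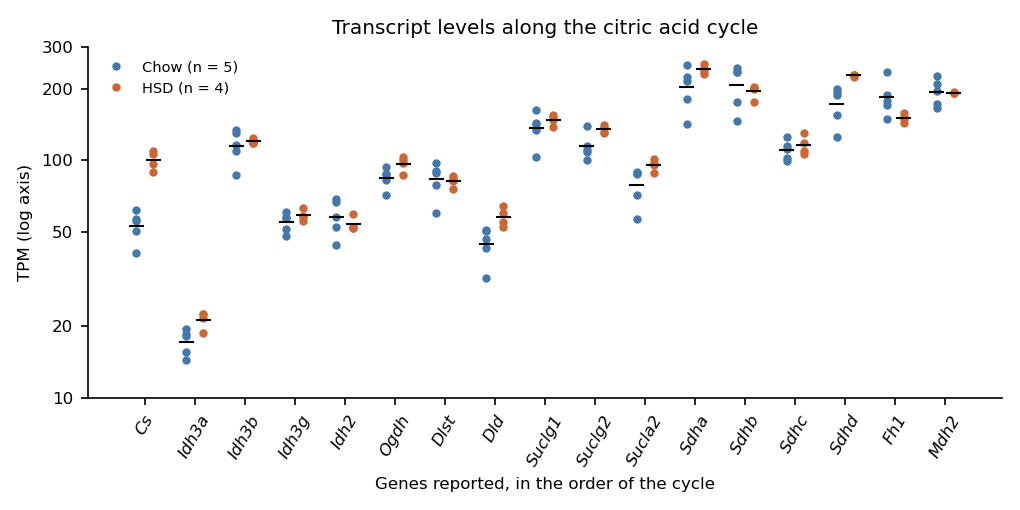
TPM (log axis) of the 9 members and 8 other genes in the order of the cycle from Cs to Mdh2, in chow (blue, n = 5) and HSD livers (orange, n = 4), each point a liver and each line the mean of a diet. Cs goes from 53.0 to 101 TPM on average, and Idh3a is the lowest of the genes shown in both diets.

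A further 8 genes of the cycle were Dlst and Dld of the alpha-ketoglutarate dehydrogenase complex, Sucla2, the succinate dehydrogenase subunits Sdha, Sdhb, Sdhc and Sdhd, and Fh1, the fumarase. Of these, 0 were higher and 0 were lower by edgeR, with a median log2 fold change of 0.04 and 2 of the 8 at an unadjusted p under 0.05, beside the 23.7% of all genes. Fh1 had the most negative value. It stood at 237, 256, 197, 176 and 201.8 CPM on chow and at 166, 159, 150 and 174 CPM on HSD, with every HSD liver below every chow liver (log2 fold change -0.40, adjusted p = 0.0595 from edgeR). DESeq2 called it lower, the single call of that tool in this list, with an adjusted p of 0.0140, and limma voom made 0 calls. By edgeR Fh1 passed in 1 of 9 fits that each left out a liver. Its adjusted p was 0.0359 without chow replicate 4 and up to 0.147 in the other fits. On TPM its diets overlapped, at 149 to 235 TPM on chow and 144 to 158 TPM on HSD. The subunits of succinate dehydrogenase, which passes electrons straight to the respiratory chain, had log2 fold changes of 0.11 for Sdha, -0.25 for Sdhb, -0.02 for Sdhc and 0.24 for Sdhd. The others were -0.17 for Dlst, 0.15 for Dld and 0.14 for Sucla2. The ratio of Cs to each of these 8 genes and of the 8 other members was higher in every HSD liver than in every chow liver, which is given as a description because Cs was singled out after its values were seen. The difference in the mean log2 ratio of TPM ran from 0.51 against Sdhd to 1.20 against Fh1, and among the members from 0.62 against Idh3a to 1.02 against Idh2.

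A set of 9 ratios between partners and isoforms was tested over the livers by an exact permutation test (two-sided, all splits of the livers into 5 and 4, smallest possible p = 0.0159), and 0 of the 9 were past an adjusted p of 0.05, while 3 had an unadjusted p under 0.05. The ratio of Idh3g to Idh3a was 3.30, 3.17, 3.28, 3.08 and 3.10 on chow and 2.60, 2.97, 2.90 and 2.55 on HSD. On TPM every HSD liver was below every chow liver, by 0.21 in the mean log2 ratio (exact permutation p = 0.0159, adjusted p = 0.0714 over the 9 ratios). With CPM in place of TPM, HSD liver 2 was above chow liver 4, so the diets overlapped. The difference was then -0.23 (exact permutation p = 0.0317, adjusted p = 0.107). The ratio of the mitochondrial Idh2 to the cytosolic Idh1, the other NADP-dependent isocitrate dehydrogenase, was 0.302, 0.338, 0.305, 0.308 and 0.309 on chow and 0.240, 0.277, 0.230 and 0.225 on HSD. For this ratio, too, the diets did not overlap on TPM, and the mean log2 ratio was lower by 0.37 (difference -0.37, exact permutation p = 0.0159, adjusted p = 0.0714). With CPM its exact permutation p was also 0.0159 (adjusted p = 0.107). On TPM both ratios were at the smallest possible p, so the few livers limit what this test could call. Idh2 to Idh3a had a difference of -0.40 (exact permutation p = 0.0476, adjusted p = 0.143) and Idh3b to Idh3a one of -0.23 (exact permutation p = 0.0635, adjusted p = 0.143).

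Of the complex partners, the ratio of Ogdh to Dlst averaged 1.03 on chow and 1.19 on HSD (exact permutation p = 0.0952). The GDP-forming and ADP-forming beta subunits of succinyl-CoA ligase stood in a ratio (Suclg2 to Sucla2) of 1.49 ± 0.281 (SD, n = 5) on chow and 1.41 ± 0.0891 (SD, n = 4) on HSD. Their log2 difference was -0.06 (exact permutation p = 0.730). Without chow replicate 1 it was 0.04. Suclg1 to Suclg2 went from 1.21 ± 0.209 to 1.10 ± 0.0606 (exact permutation p = 0.444, SD, n = 5 and n = 4). Mitochondrial to cytosolic malate dehydrogenase (Mdh2 to Mdh1) was 0.320 on chow and 0.354 on HSD (exact permutation p = 0.0794). The ratio of Cs to Acly, the cytosolic enzyme that splits citrate again, was 0.840 in chow liver 1, 0.744 in chow liver 3 and 0.280 to 0.334 in chow livers 2, 4 and 5, against 0.233 to 0.540 on HSD (exact permutation p = 0.270).

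**Figure D4:**
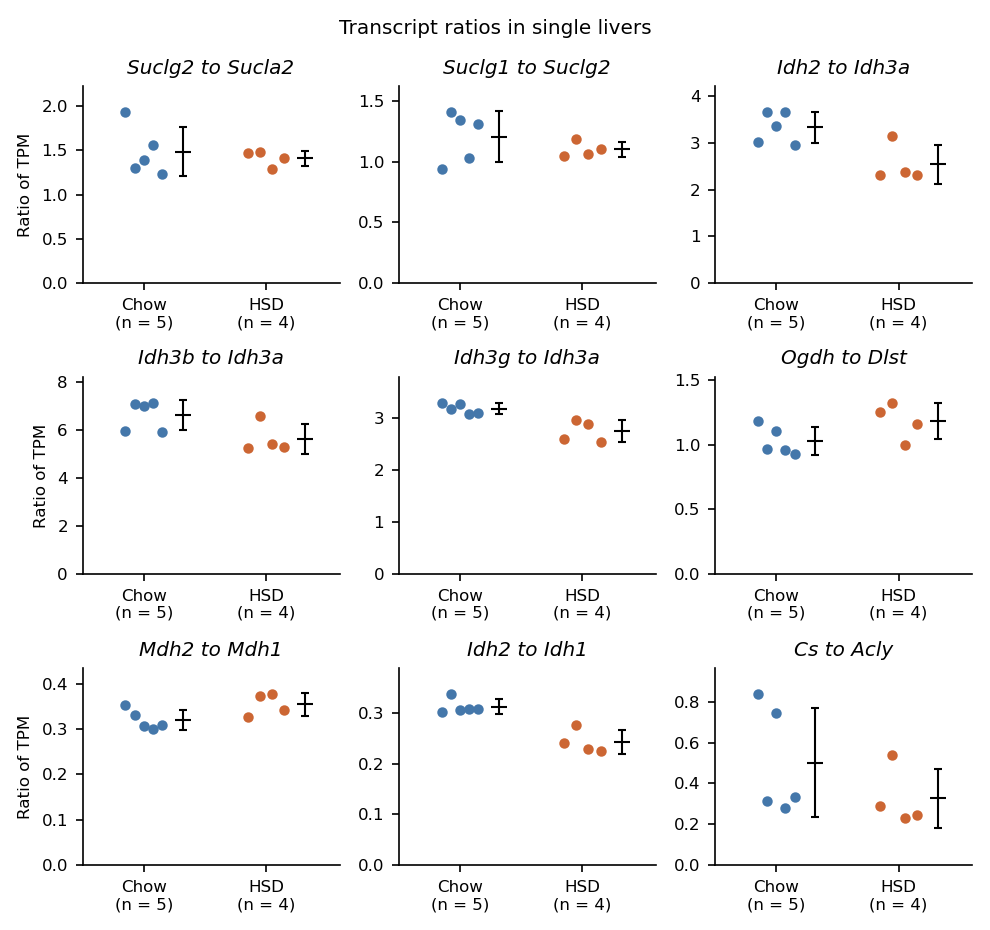
Ratio of the TPM of the named pairs of genes (vertical axes, from 0) in single livers of chow (blue, n = 5) and HSD (orange, n = 4) mice, with mean and SD. The diets are apart for Idh3g to Idh3a (3.08 to 3.30 against 2.55 to 2.97) and for Idh2 to Idh1 (0.302 to 0.338 against 0.225 to 0.277), and overlap in the other 7 panels.

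Outside the cycle itself, of 12 tested genes that carry pyruvate into the cycle or regulate that step, 3 were higher (Dlat, Pdha1 and Pdk4), 0 were lower and 9 did not pass, against 3.44% higher and 3.23% lower of all genes, and the median log2 fold change was 0.16. Dlat, the acetyltransferase component of the pyruvate dehydrogenase complex, which makes the acetyl-CoA that Cs uses, stood at 27.4, 37.7, 34.7, 40.6 and 45.1 CPM on chow and at 80.2, 67.4, 70.6 and 85.6 CPM on HSD (log2 fold change 1.03, adjusted p = 0.00166 from edgeR). Pdha1, a subunit of its first component, stood at 77.3, 91.6, 88.7, 119.4 and 102 CPM on chow and at 141, 150.5, 155.5 and 152 CPM on HSD (log2 fold change 0.64, adjusted p = 0.00793 from edgeR). Both genes had every HSD liver above every chow liver, as Cs did. Pdk4, a kinase that inactivates this complex, rose from 1.12 to 2.31 CPM on chow to 4.67 to 6.76 CPM on HSD (log2 fold change 1.82, adjusted p = 0.00167 from edgeR). The genes that rose therefore include parts of the complex and an inhibitor of it, the latter at a low level. Pdhb, also of the complex, had a log2 fold change of -0.10 and did not pass. DESeq2 also called Mpc2 of this list higher, which edgeR did not (log2 fold change 0.40, adjusted p = 0.0894 from edgeR). The kinases Pdk1 and Pdk2 were at 42.9 to 103 and 110 to 172 CPM on chow, far above Pdk4. Neither passed, with log2 fold changes of 0.63 and -0.27 (adjusted p = 0.121 and 0.219 from edgeR), though Pdk1 had every HSD liver above every chow liver. Pcx, pyruvate carboxylase, which makes oxaloacetate from pyruvate, had a log2 fold change of -0.0085. Of the 31-base sequences of Pdha1, 15.8% also occur in other genes.

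Among 5 cytosolic enzymes that handle the same metabolites, 1 was higher and 0 were lower, against 3.44% and 3.23% of all genes. Me1, the malic enzyme that makes NADPH, stood at 108, 206, 167, 303 and 363 CPM on chow and at 898, 591, 871 and 899 CPM on HSD (log2 fold change 1.83, adjusted p = 0.00523 from edgeR). Other genes hold 36.9% of its 31-base sequences. Acly stood at 195, 583, 241, 707 and 601 CPM on chow and at 1062, 549, 1500 and 1392 CPM on HSD (log2 fold change 1.27, adjusted p = 0.0688 from edgeR). HSD liver 2 was within the chow range for Acly, and chow livers 1 and 3 were the lowest in both genes. Aco1, Idh1 and Mdh1, which encode cytosolic enzymes, had log2 fold changes of -0.25, 0.12 and -0.30 and did not pass. DESeq2 called 2 of the 5 higher (Me1 and Acly) and 1 lower (Mdh1). Over all 12091 genes it called 647 higher and 690 lower, against 416 and 391 by edgeR.

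Genes through which amino acids enter or leave the cycle had 2 of 13 lower and 0 higher, beside 3.23% and 3.44% of all genes. Their median was -0.21, beside -0.0039 over all genes tested. Gpt, an alanine aminotransferase, which exchanges alanine and alpha-ketoglutarate for pyruvate and glutamate, stood at 209, 267, 209, 266 and 272 CPM on chow and at 107, 142, 143 and 138 CPM on HSD (log2 fold change -0.88, adjusted p = 0.00259 from edgeR). Gpt2, another alanine aminotransferase gene of the list, was at 314 to 518 CPM on chow and 350 to 445 CPM on HSD. It did not pass (log2 fold change -0.06, adjusted p = 0.858 from edgeR). Abat, GABA aminotransferase, had a log2 fold change of -0.45 (adjusted p = 0.0376 from edgeR). Its call was kept in 1 of 9 fits that each left out a liver, the fit without chow replicate 1, and in the other 8 the adjusted p was 0.0615 to 0.123. Of 11 genes of exit routes and mitochondrial carriers, 1 was lower and 0 were higher, beside the same shares of all genes. The lower gene was Slc25a10, the dicarboxylate carrier that exchanges malate and succinate for phosphate. Its log2 fold change was -0.40 (adjusted p = 0.0142 from edgeR, 0.0604 without HSD replicate 1 and 0.0606 without HSD replicate 4). Of these 11 genes DESeq2, which called more of all genes than edgeR, called 2 higher (Pck2 and Slc25a12), and limma voom 1 (Pck2). Slc25a1, the carrier that exports citrate, had a log2 fold change of 0.20 (adjusted p = 0.263 from edgeR).

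Of 12 tested genes that assemble or modify the enzymes, such as the lipoic acid synthase Lias and the deacetylase Sirt3, 0 were higher and 0 were lower by edgeR, DESeq2 and limma voom, with 4 of the 12 at an unadjusted p under 0.05, beside the same 23.7%. Of 6 regulators of mitochondrial genes, 1 was higher and 0 were lower, against 3.44% and 3.23% of all genes. The higher gene was Ppargc1a, a coactivator of mitochondrial and gluconeogenic genes. It rose from 5.30, 8.76, 5.58, 8.10 and 7.33 CPM on chow to 14.1, 10.7, 12.4 and 16.3 CPM on HSD (log2 fold change 0.93, adjusted p = 0.00955 from edgeR). Ppargc1b, Esrra, Nrf1, Gabpa and Tfam did not pass, with log2 fold changes of -0.49, 0.07, 0.03, 0.09 and 0.08, and Ppargc1b was called lower without chow replicate 1. Of 20 genes for other mitochondrial proteins (porins, import, chaperones and respiratory subunits), 0 were higher and 1 was lower. Their median was -0.03, and the shares of all genes called were those given for the regulators. The lower gene was Hspe1, the co-chaperonin of the matrix, with a log2 fold change of -0.51 (adjusted p = 0.00657 from edgeR). DESeq2, and edgeR without chow replicate 1, also called Hspd1 lower. In the main fit Hspd1 had a log2 fold change of -0.33 (adjusted p = 0.0774 from edgeR). Of the 31-base sequences of Hspe1, 30.5% occur in other genes.

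The members were not level within a diet. The mean of their log2 CPM, each centred over the 9 livers, was -0.12 in chow liver 1, -0.09 in chow liver 3 and 0.09 in chow liver 2, and -0.0067 to 0.06 in the HSD livers. Of the members, 6 of 9 had a larger SD of log2 CPM on chow than on HSD, and so had 65.4% of all genes tested. The difference in spread was widest for Idh3b (0.163 on chow and 0.0391 on HSD) and Mdh2 (0.130 and 0.0239), while Cs had 0.112 and 0.121. Without chow replicate 1 the SD on chow was 0.0878 for Idh3b, 0.150 for Mdh2 and 0.0549 for Cs, 6 of 9 members still had the larger SD on chow, and the share of all genes was 57.2%. The genes whose profile over the 9 livers was most like the mean of the members were Necap1 (Pearson's r = 0.98), Nhlrc2 (0.96), Ttr (0.96), Larp4 (0.95) and Prss8 (0.95). With the diet means removed they were Necap1 and Ap3m1 (0.98 each), Gstm1, Qdpr and Zbed5 (0.97 each). These are the highest correlations among the 12091 genes tested, which share the same 9 libraries, and are descriptive.

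**Figure D5:**
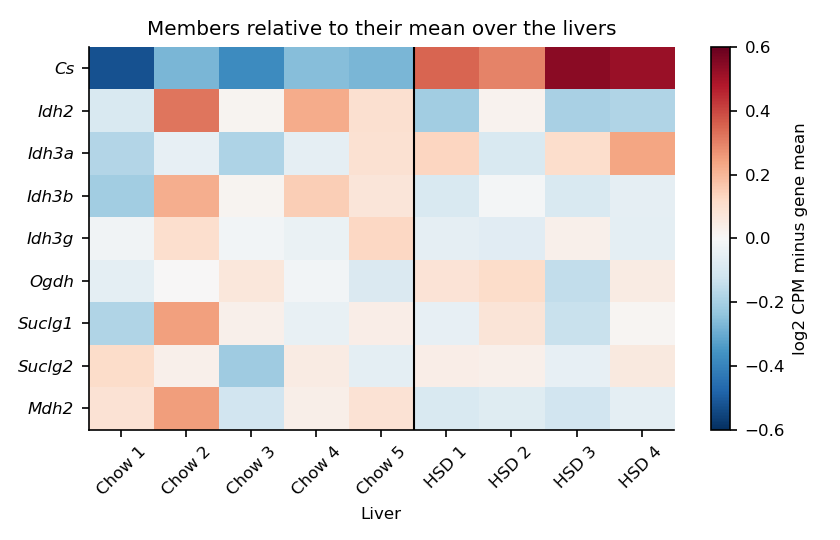
Log2 CPM of each member minus its mean over the 9 livers (colour), with chow livers to the left of the black line and HSD livers to the right. Cs runs from -0.52 in chow liver 1 to 0.54 in HSD liver 3, whereas Idh2, Idh3b, Suclg1 and Mdh2 each have their highest value in chow liver 2.

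Of the livers, chow liver 1 stood apart. Its 12 acute-phase genes summed to 84946 CPM, while no other chow liver exceeded 24718 CPM and the HSD livers had 17291 to 19841 CPM, and its Cs was the lowest of the 9 livers. Without chow replicate 1 the log2 fold change of Cs was 0.72 (adjusted p = 0.000585 from edgeR). Arntl, which drives the circadian clock, was at 4.40 CPM in chow liver 1, 9.24 CPM in chow liver 3, 1.35 to 1.63 CPM in chow livers 2, 4 and 5 and 4.20 to 9.15 CPM on HSD. Every HSD liver was above chow livers 2, 4 and 5 in Arntl, and with a clock covariate in the model the log2 fold change of Cs was 0.81 (adjusted p = 0.000588 from edgeR). All 6 hepatocyte markers were detected and summed to 73433 to 135760 CPM on chow and 100740 to 135240 CPM on HSD. The summed levels of 6 Kupffer and macrophage markers were 143 to 335 CPM on chow and 93.3 to 188 CPM on HSD, those of 5 stellate cell markers 144 to 189.5 and 182 to 229 CPM, those of 5 cholangiocyte markers 29.9 to 73.5 and 44.1 to 68.1 CPM, and those of 5 red blood cell markers 182 to 459 and 115 to 157 CPM, the last without overlap. The 3 exocrine pancreas markers were low and also did not overlap (13.7 to 23.9 CPM on chow and 6.88 to 13.65 CPM on HSD), all of it Cela1, which edgeR called lower, since Prss2 and Pnlip were at 0 in every liver. Chow liver 1 had the lowest hepatocyte sum. It also had the highest chow sums of Kupffer and macrophage markers and of cholangiocyte markers, where the other chow livers reached at most 250 and 47.9 CPM. The part of these differences in the members' values was not tested. Total estimated counts were 12769668 to 25913869 per chow liver and 14040723 to 24825322 per HSD liver.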

How the data were processed

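The authors selected poly-A RNA and ran kallisto (no version stated) with GRCm38. The deposited tables hold estimated counts and TPM by gene symbol, the TPM being scaled by the authors to 1 sum in every library (923061 to 945110 over the symbols listed). Kallisto shares reads that fit several transcripts among them. Of the deposited counts above 0, 34.1% were whole (within 1e-06) and 99.1% of these were even, so a fit on halved counts was run as an alternative.

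Rounded counts passed through filterByExpr (at least 10 counts, total 15) and TMM to the quasi-likelihood test of edgeR 4.0.16 (R 4.3.3), with diet as the factor, over 12091 genes. The biological coefficient of variation was 0.187. Samples were grouped by their labels, and none was a repeat, the chi-square per degree of freedom between livers on 1 diet being 14.6 to 252 (16 pairs). Columns of other samples numbered 0. Ratios of TPM (pseudocount 0.1) were tested by exact permutation (scipy 1.17.1). Log2 CPM used a prior count of 2. Scripts were tested on simulated data. Alternatives used DESeq2 1.42.0 and limma 3.58.1, other scaling and filters, log2(TPM + 1) and log2(TPM + 0.1), a replicate block, the label series, a clock covariate (Arntl minus Dbp), an adjusted p under 0.01 and each liver left out.

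The members, lists and tests were chosen with earlier results of these data known. Named were all members, 8 other genes of the cycle, the cytosolic enzymes and the regulators, up to 4 genes of each other list with the smallest p past the test, and the 5 genes most like the members' mean. Pdhb, Mpc2, Pdk1, Pdk2, Pcx, Gpt2, Pck2, Slc25a1, Slc25a12, Lias, Sirt3, Hspd1, Arntl and the comparison of Cs with the other cycle genes were added after the values were seen. For Ogdh, with 6 RefSeq windows, the window nearest the annotated start was searched. A gene of the cycle is not reported here. Positions and shared 31-base sequences are from GENCODE for GRCm38.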

Additional observations from a re-analysis of the deposited data

Results flagged for a closer look

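Over 36 groups (each diet for 9 members and 9 ratios), 5 held a liver that stood apart from the others of its diet by Dixon's ratio, and chance alone marks about 1 in 20 groups. HSD liver 2 accounts for 3 of them. Its Idh2 was 70.0 CPM, against 59.7 to 60.9 CPM in the other HSD livers, its ratio of Idh2 to Idh3a was 3.15, against 2.31 to 2.39, and its ratio of Idh3b to Idh3a was 6.58, against 5.26 to 5.42. The ratios share Idh3a, which was lowest on HSD in that liver. In HSD liver 3, Idh3g was 50.5 CPM, against 47.1 to 47.5 CPM in the others. In chow liver 2 the ratio of Idh2 to Idh1 was 0.338, against 0.302 to 0.309 in the other chow livers. The cause of these values was not tested.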

How the results depend on the processing

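Over 22 alternative fits the log2 fold change of Cs ran from 0.67 to 0.93 and passed in 21, and it also passed an adjusted p under 0.01 in edgeR. The exception was the first label series alone (4 chow and 2 HSD livers, so fewer samples), where 0 members were higher and Cs had 0.67 (adjusted p = 0.0844 from edgeR). Leaving out each liver gave 0.72 to 0.81, with adjusted p from 0.000585 to 0.00718. The count of members lower was 0 in every fit. Genes past the test in the other pathway lists numbered 9, but 16 with DESeq2 and 1 (Dlat) in the first label series alone. Over all genes edgeR called 416 higher and 391 lower, and DESeq2 647 and 690. In the first label series alone edgeR called 15 and 19, so these counts moved in the same direction as the calls over all genes. The cause of the larger number with DESeq2 was not tested. With the replicate block (replicate numbers 1 to 4, without chow 5) Cs had 0.78 (adjusted p = 0.00988 from edgeR) and 7 genes of the other lists passed. Deviations of livers with the same number correlated by -0.06 to 0.07, which shows no sign of pairs but cannot exclude them. The labels do not state that the numbers mark pairs.

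Small differences of members that did not pass changed sign. With library totals Idh3g had 0.0020 and Suclg1 0.021. On log2(TPM + 1), with or without the filter, Idh3b had 0.0765, Idh3g 0.0962 and Suclg1 0.125, and on log2(TPM + 0.1) they had 0.0773, 0.0978 and 0.126. The median of all genes moved up by 0.14 with a pseudocount of 1 and by 0.16 with 0.1, more than these values, and by 0.07 without the filter, less than them. Leaving out each liver, Suclg1 ran from -0.0993 to 0.0149 (above 0 without chow replicate 2), Suclg2 from -0.0141 (without chow replicate 3) to 0.0581, and the Suclg2 to Sucla2 ratio from -0.121 to 0.0405 (without chow replicate 1). The number of ratios past the test was 0 in every alternative run. Leaving out a liver raises the smallest possible p above 0.0159. In the runs that left out a liver the 0 was thus nearly fixed by the number of livers and does not measure stability. The runs with CPM and with log2(TPM + 1) kept all 9 livers and the smallest possible p of 0.0159. Without chow replicate 1, Idh3g to Idh3a had an exact permutation p of 0.0286 and an adjusted p of 0.0857.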
